A study of Mus musculus with 10 samples.

Results

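Ribosome-bound RNA from the cerebral cortex was compared between mice that self-administered cocaine and mice that self-administered saline. The comparison used 6 of the 10 libraries of the series, the 3 immunopurified (IP) libraries of each of these groups, and every gene in their count tables. All mice were adults of the S100a10-EGFP/Rpl10a line (ES691), in which regulatory sequences of S100a10 drive a ribosomal protein fused to EGFP, and both groups belonged to a short-access study of intravenous self-administration. In translating ribosome affinity purification (TRAP), tagged polysomes are pulled from homogenised tissue with an antibody against EGFP, and the RNA they hold is sequenced. The labels give neither the dose, the number of sessions, the time from the last session to dissection, the number of animals in a library nor whether each library is a different mouse or pool, so a p-value here reflects only spread between libraries, which may be technical. Yoked controls, for which the labels do not say what was infused, gave 3 further IP libraries, whose values are set beside some of those below. The libraries of a group shared a sequencing lane and each group had its own, so lane and treatment cannot be told apart.

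S100a10, also called p11, is a small protein of the S100 family that binds annexin A2 and carries membrane proteins, including serotonin receptors, to the cell surface. In the cortex it is known from projection neurons of layer 5. Neurons answer strong synaptic input by switching on immediate early genes within minutes, among them the zinc finger factors of the Egr family, the Fos and Jun proteins and the Nr4a nuclear receptors. These factors are steered by calcium entry through SRF, which binds CArG boxes, and CREB, which binds cAMP response elements. Cocaine blocks the reuptake of dopamine, noradrenaline and serotonin, and in the cortex and striatum such genes are long known to respond to it.

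The labels call the cells neurons. Neuronal transcripts were abundant in the 6 IP libraries. Snap25, a synaptic fusion protein, lay between 16811 and 24403 CPM (counts scaled to the size of the library, here with the input library included in the scaling), against 17507 CPM in the unpurified saline input. S100a10 lay between 167 and 283 CPM, against 35.8 CPM in the input. The sulfate transporter Slc13a4, a marker of the meninges, the membranes around the brain, lay between 256 and 480 CPM in the IP libraries and at 11.5 CPM in the input, so the purified RNA also held transcripts of cells other than neurons. Other markers lay below the input, which is 1 library. Mbp of myelin lay between 54.5 and 158 CPM in the IP libraries and at 333 CPM in the input. Aqp4 of astrocytes lay between 3.4 and 13.7 CPM against 44.6 CPM, and Gad1 of interneurons between 48.5 and 143 CPM against 197 CPM. Each library held 42581837 to 48380580 counts assigned to genes. Libraries numbered 3 stood apart from those numbered 1 and 2 in every IP group, on a first principal component with 25.3% of the variance, and saline replicate 1 stood apart on the second, with 18.6%. On that second component saline replicate 1 was at 56.4 and cocaine replicate 1 at the other end, at -31.3, so these 2 libraries were its extremes. The fit held the replicate number as a block, so each fold change compares libraries of the same number. Such libraries are called pairs below, by number only, since the labels do not say what the numbers share. Deviations from the group mean correlated at -0.04, 0.21 and 0.31 between the saline and cocaine libraries numbered 1 to 3.

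No gene passed the test between cocaine and saline. Of 16642 genes tested with edgeR's quasi-likelihood test, 0 had an adjusted p under 0.05 (0%), and the lowest adjusted p was 0.717. DESeq2 and limma-voom also called 0. At an unadjusted p under 0.05, edgeR found 1154 genes, DESeq2 1233 and limma-voom 1208. Of the 1154, 452 were higher with cocaine (2.72% of genes tested) and 702 were lower (4.22%). The standard error of the log2 fold change (log2FC, cocaine minus saline) had a median of 0.16 over genes averaging at least 1 log2 CPM. When genes with low counts were kept in (22813 tested), edgeR called 29, of which 18 were higher and 11 lower. All 29 were among the 16642 tested before. Those named below are Sox10, Tspan2, Acsbg1, Ptprz1 and Ednrb on the higher side and Nnat, Lars2, Rplp1, Ptgds, Rn45s and Cxcl10 on the lower, and none of the 29 is an Egr gene. With the filter on, everything that follows is a description of values that did not pass. A gene of the IP can be lower because fewer cells of a type were captured or because each held less of its RNA, and bulk libraries cannot tell these apart.

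**Figure D1:**
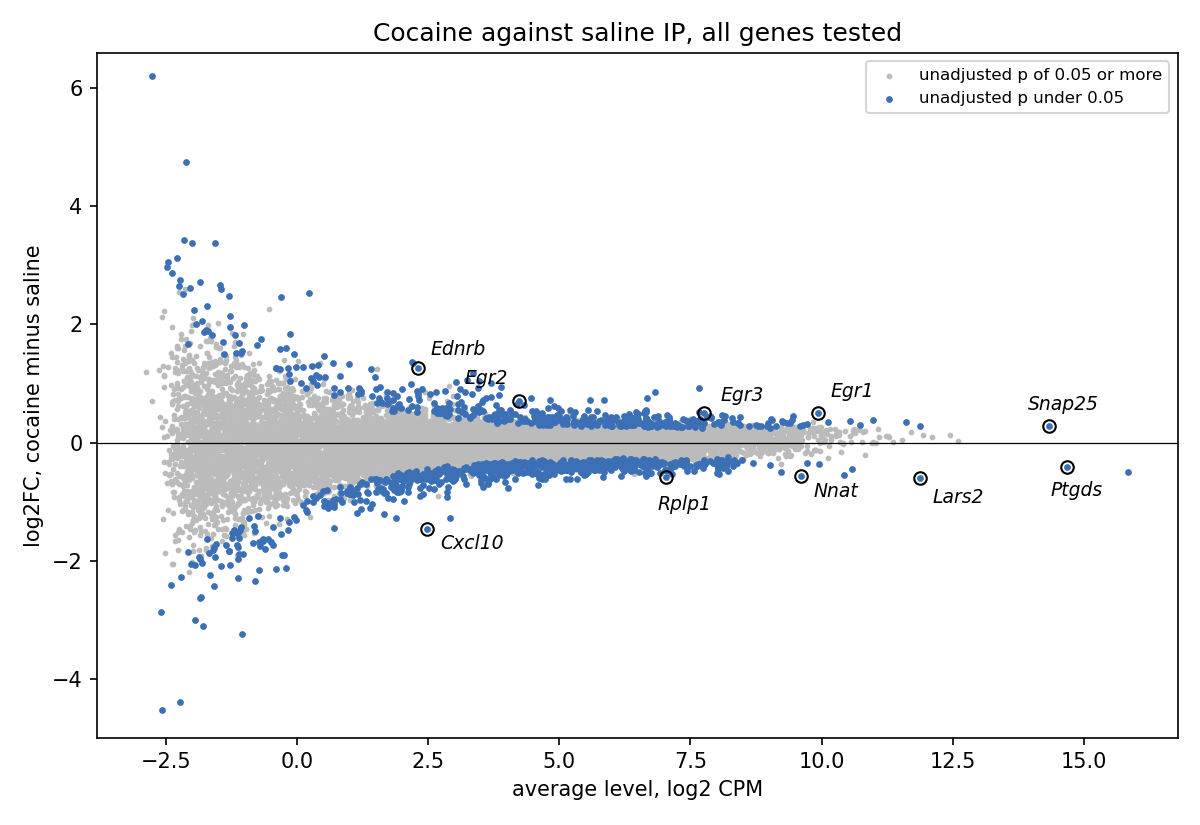
Fold change against level for the 16642 genes tested. The x axis is the average level in log2 CPM over the 9 IP libraries and the y axis is the log2FC, cocaine minus saline. Blue points are the 1154 genes with an unadjusted p under 0.05, and circles mark genes described in the text. Egr1, Egr2 and Egr3 lie above 0, and Nnat, Lars2, Ptgds and Rplp1 lie below it.

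Among the genes chosen for the lowest unadjusted p and for the same sign in every pair, the highest-ranked in the upward direction were Egr1, Egr3 and Egr2. Egr1 (Zif268) is a transcription factor used as a marker of neuronal activity. Egr1 was at 702, 724 and 926 CPM in saline replicates 1 to 3 and at 1159, 982 and 1144 CPM in cocaine replicates 1 to 3. Every cocaine library was above every saline library. Its log2FC was 0.49 ± 0.12 (SE, n = 3 pairs), or 1.41-fold, with an adjusted p of 0.717. Genes whose groups did not overlap in this direction made up 4.13% of genes tested, and those that did not overlap in the downward direction 4.55%.

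Egr3, a relative of Egr1 with nearly the same DNA-binding domain, was at 173, 151 and 195 CPM in saline and at 218, 213 and 311 CPM in cocaine. The groups did not overlap, with the widest gap inside the third pair, and the log2FC was 0.50 ± 0.12. Egr2 (Krox20), known for myelination by Schwann cells and also switched on by activity in neurons, was at 9.65, 11.8 and 15.9 CPM in saline and at 17.0, 14.2 and 31.9 CPM in cocaine. Each cocaine library was above its own partner, but cocaine replicate 2 lay below saline replicate 3, and the log2FC was 0.71 ± 0.18. Egr4, the fourth member, was at 9.96, 12.4 and 19.3 CPM in saline and at 17.97, 14.8 and 24.7 CPM in cocaine, with overlap between the groups and a log2FC of 0.48 ± 0.17. In the yoked libraries the log2FC against the same saline libraries was 0.41 ± 0.12 for Egr1, 0.39 ± 0.12 for Egr3, 0.88 ± 0.18 for Egr2 and 0.41 ± 0.17 for Egr4. These share their saline libraries with the cocaine values and are not a second test of them. Between cocaine and yoked libraries the 4 log2FC were 0.08, 0.11, -0.17 and 0.07.

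The sequences just upstream of Egr2 and Egr4 are shown because the values of both genes were higher in each of the 3 pairs and because both are known targets of activity. They are from RefSeq (GRCm38.p6), written 5′ to 3′ on the strand of the gene. Capitals mark a CArG box (searched by its consensus) and the core of a cAMP response element (TGACG), each on either strand. The Egr2 window covers chr10:67537669-67537868 on the plus strand, the 200 bases before the listed start with most matches among 5, and lies inside the span of the longer Egr2 gene model. The Egr4 window covers chr6:85513590-85513789 on the minus strand.
Egr2: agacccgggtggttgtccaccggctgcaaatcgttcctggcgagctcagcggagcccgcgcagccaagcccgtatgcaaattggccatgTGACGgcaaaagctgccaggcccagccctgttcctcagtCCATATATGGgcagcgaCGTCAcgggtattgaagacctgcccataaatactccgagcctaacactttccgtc
Egr4: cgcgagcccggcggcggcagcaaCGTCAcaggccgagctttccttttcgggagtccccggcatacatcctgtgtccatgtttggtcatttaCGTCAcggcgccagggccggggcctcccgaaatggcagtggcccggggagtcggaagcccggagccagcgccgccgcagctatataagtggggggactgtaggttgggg
The Egr2 window held 1 CArG box, beginning 72 bases before the start, and 2 response element cores, at 111 and 55 bases. The Egr4 window held 0 CArG boxes and 2 cores, at 177 and 109 bases. Over windows of 250 bases before the start, a CArG box was found for 1 of 21 immediate early factors with an entry and for 1.62% of 27025 genes, and a response element core for 15 of 21 and for 19.8%. A match is only a run of letters and shows no binding. Egr1 and Egr3 have no entry in the table.

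Across the list of 25 immediate early transcription factors, all of them tested, 18 had a log2FC above 0, against 47.8% of all genes. Of these, 9 were higher in all 3 pairs (14% of all genes were) and 1 was lower in all 3 (16.8% of all genes). The same shares of all genes apply to the counts of every list below. So do 2.72% higher and 4.22% lower for counts at an unadjusted p under 0.05. The median log2FC was 0.17, against -0.01 over all genes, and the medians within pairs 1 to 3 were 0.29, 0.20 and 0.16. The summed level of the list was 1573 to 1896 CPM in saline and 1963 to 2324 CPM in cocaine, so the groups did not overlap. Egr1 alone averaged 784 of 1697 CPM of this sum in saline and 1095 of 2151 CPM in cocaine. None of the 25 passed, and 6 were higher and 1 lower at an unadjusted p under 0.05. Leaving out saline replicate 3 put the median at 0.34 and leaving out saline replicate 1 at 0.12. In the yoked libraries the median against saline was 0.13.

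The factors differed among themselves. Nr4a1 (Nur77), an orphan nuclear receptor, was at 31.9, 51.3 and 72.3 CPM in saline and at 62.8, 71.6 and 67.6 CPM in cocaine. Saline replicates 1 and 2 were below every cocaine library but saline replicate 3 was above all of them, and the log2FC was 0.42 ± 0.19, or 0.15 without saline replicate 1. Fosb, whose truncated product ΔFosB builds up in striatal neurons during repeated cocaine, was at 9.06, 10.3 and 10.1 CPM in saline and at 11.1, 12.1 and 13.9 CPM in cocaine. The groups did not overlap and the log2FC was 0.32 ± 0.18. Fos, the classic activity marker, was at 14.7, 19.5 and 21.7 CPM in saline and at 24.9, 21.3 and 20.2 CPM in cocaine. It was higher with cocaine in pairs 1 and 2 and lower in pair 3, with a log2FC of 0.24 ± 0.18. Without saline replicate 1 the log2FC of Fos was -0.02. The log2FC was 0.06 ± 0.25 for Npas4, a factor specific to calcium signals, 0.17 ± 0.19 for Jun and 0.02 ± 0.23 for Junb. Outside the naming rule and picked after their values were seen, Fosl2, an AP-1 subunit, had a log2FC of 0.44 ± 0.14, and Ier2 was the 1 factor lower in every pair, at -0.57 ± 0.22.

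Effectors of neuronal activity had values that differed from pair to pair. Of 24 activity-regulated effectors, 14 had a log2FC above 0, 4 were higher and 1 lower in all 3 pairs, and the median was 0.08, with pair medians of 0.45, 0.01 and -0.10. For the 4 higher ones this share is close to the 14% of all genes. Without saline replicate 1 the median was 0.01, and without cocaine replicate 1 it was 0.003. Bdnf, a neurotrophin released by active neurons, was at 9.21, 13.5 and 17.3 CPM in saline and at 16.4, 15.3 and 20.1 CPM in cocaine, with overlapping groups and a log2FC of 0.39 ± 0.18. Arc, a regulator of AMPA receptor trafficking, was at 51.0, 65.6 and 108 CPM in saline and at 104, 94.2 and 85.2 CPM in cocaine. As with Nr4a1, only saline replicate 3 was above the cocaine libraries, and the log2FC was 0.37 ± 0.21. Leaving out saline replicate 1 put it at 0.08 for Arc and at 0.17 for Bdnf. Homer1, a postsynaptic scaffold with an activity-induced short form, had a log2FC of 0.20 ± 0.13, and Ntrk2, the receptor for Bdnf, one of 0.30 ± 0.16.

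**Figure D2:**
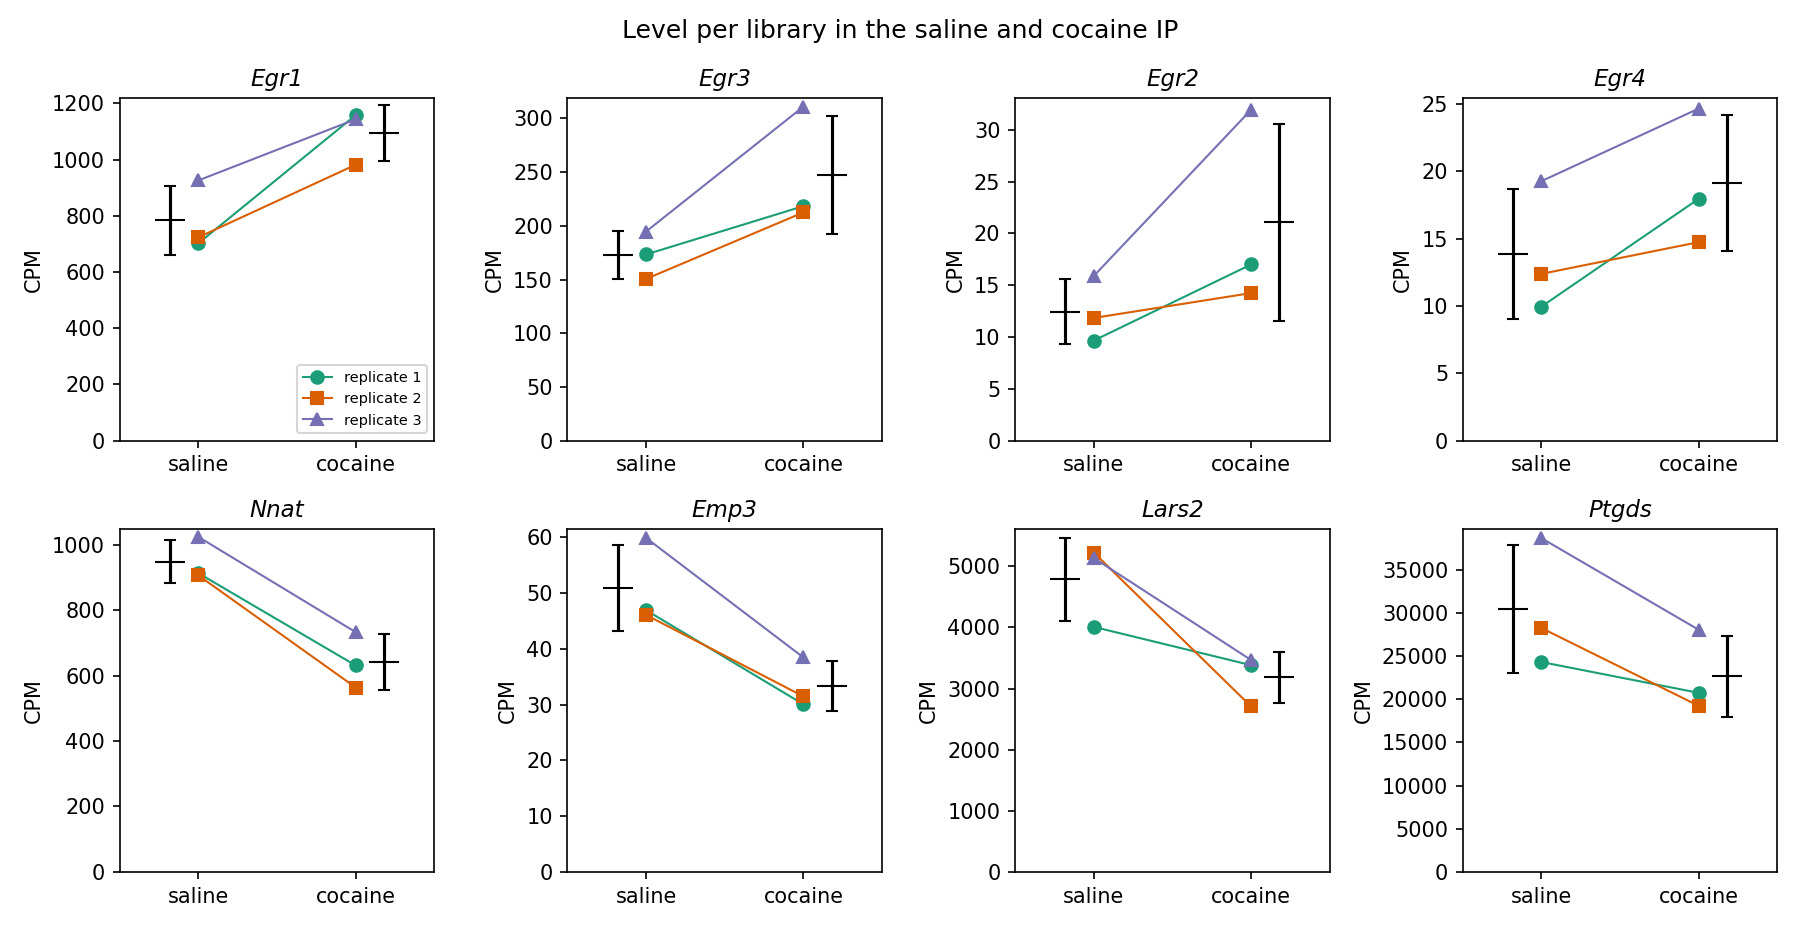
Level in CPM (linear axes from 0) of 8 genes in each saline and cocaine IP library. Colour and shape give the replicate number, lines join libraries of the same number, and the black bars are the mean ± SD of 3 libraries. All 3 lines climb for Egr1, Egr2, Egr3 and Egr4 and all 3 descend for Nnat, Emp3, Lars2 and Ptgds.

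The gene with the lowest unadjusted p was Nnat (neuronatin, chromosome 2, 157560078 to 157562522, plus strand, GRCm38), an imprinted gene for a small protein of the endoplasmic reticulum linked to calcium handling. Nnat was at 913, 906 and 1024 CPM in saline and at 631, 564 and 733 CPM in cocaine. Every cocaine library was below every saline library, with a log2FC of -0.57 ± 0.12, or 0.674-fold, and an adjusted p of 0.717. Emp3, a membrane protein of the PMP22 family, was at 46.9, 46.1 and 59.9 CPM in saline and at 30.1, 31.5 and 38.5 CPM in cocaine. The 3 pairs gave close log2 ratios, at -0.64, -0.55 and -0.64.

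Lars2, the mitochondrial leucyl-tRNA synthetase, was at 4010, 5226 and 5138 CPM in saline and at 3383, 2707 and 3467 CPM in cocaine. The groups did not overlap, and the log2FC was -0.60 ± 0.14. Rn45s, the precursor of ribosomal RNA, had a log2FC of -0.50 ± 0.18, at 0.21, -0.93 and -0.75 in pairs 1 to 3. Reads aligned to more than 1 place, which are not assigned to genes, made up 44.9% ± 1.81 of saline and 39.9% ± 1.44 of cocaine libraries (SD, n = 3). In a two-sided exact permutation test this gave p = 0.1, which is the lowest value possible with 3 libraries a side, and an adjusted p of 0.338 over 9 library measures. The share of gene counts taken by Lars2 was 0.475% ± 0.0553 in saline and 0.319% ± 0.0407 in cocaine, also with p = 0.1 in that exact test. Both shares moved together with the groups, and their part in the values of single genes was not tested. Other genes low in every pair were Flywch2 (log2FC -0.70 ± 0.18), the Lutheran blood group adhesion protein Bcam (-0.61 ± 0.16) and D330023K18Rik (-0.91 ± 0.24).

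Higher in every pair were also AB346318 (0.54 ± 0.14), Frmd5, a FERM-domain protein (0.61 ± 0.17), Mterf2, a mitochondrial transcription termination factor family member (0.67 ± 0.19), Efhd1, a mitochondrial calcium sensor (0.82 ± 0.24), and Strip2 (0.77 ± 0.22). Tspan2, a tetraspanin of oligodendrocytes, was at 0.72 ± 0.21. Without cocaine replicate 1 the log2FC was 0.36 for Tspan2, 0.47 for Strip2, 0.52 for Efhd1 and 0.40 for Frmd5. Ednrb, the type B endothelin receptor, which in the brain is found mostly on astrocytes, was at 2.14, 6.01 and 1.98 CPM in saline and at 8.48, 8.07 and 5.14 CPM in cocaine. Its lowest cocaine library was below saline replicate 2, and the log2FC was 1.27 ± 0.33. Shc4, an adaptor of Trk receptors, was at 5.11, 4.89 and 4.54 CPM in saline and at 7.26, 7.05 and 7.54 CPM in cocaine, a log2FC of 0.59 ± 0.19 with a narrow spread inside each group.

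Most genes of the ribosome and the respiratory chain were lower with cocaine. Cytosolic ribosomal proteins build the particle that the purification itself captures. Of 80 tested, 3 had a log2FC above 0, 60 were lower and 1 was higher in all 3 pairs, 28 were lower at an unadjusted p under 0.05, and the median was -0.32. The pair medians were -0.56, -0.25 and -0.18. Rplp1, a stalk protein of the large subunit, was at 201, 178 and 133 CPM in saline and at 115, 121 and 103 CPM in cocaine, without overlap, and its log2FC was -0.58 ± 0.14. Rpl37 was at 91.5, 73.9 and 51.5 CPM in saline and at 46.6, 55.8 and 39.5 CPM in cocaine. Here saline replicate 3 overlapped the cocaine libraries, and the log2FC was -0.59 ± 0.15. Many genes of this family have near-identical pseudogenes, so their counts are uncertain.

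Oxidative phosphorylation makes ATP at the inner mitochondrial membrane. Of 74 nuclear-encoded genes of it tested, 7 had a log2FC above 0, 53 were lower and 2 were higher in all 3 pairs, 28 were lower at an unadjusted p under 0.05, and the median was -0.27. Without cocaine replicate 1 the median was -0.15. Atp5e, a subunit of ATP synthase, was at 404, 407 and 199 CPM in saline and at 210, 302 and 167 CPM in cocaine, with overlapping groups and a log2FC of -0.54 ± 0.16. Ndufa7, of complex I, had a log2FC of -0.51 ± 0.15. Translation initiation and elongation factors had 11 of 40 above 0 and a median of -0.06.

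Transcript length moved with these values. Genes with at least 1 log2 CPM were split into 4 bins of near-equal size by annotated transcript length. The median log2FC was -0.15 in the shortest bin (73 to 2103 bases, 3141 genes), -0.04 in the next, 0.03 in the third and 0.10 in the longest. The order from short to long was the same in each pair. It was steepest in pair 1, from -0.32 to 0.18, and shallowest in pair 3, from -0.06 to 0.02. With a trend in length removed from every library, the median was -0.08 for ribosomal proteins and -0.02 for oxidative phosphorylation, with 23 of 80 and 32 of 74 above 0. The immediate early factors then had a median of 0.22, with 19 of 25 above 0. Egr1 had a log2FC of 0.44, Egr3 of 0.47, Egr2 of 0.72 and Nnat of -0.38 after this step. The yoked libraries gave -0.13 and 0.09 against saline in the shortest and the longest bin.

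**Figure D3:**
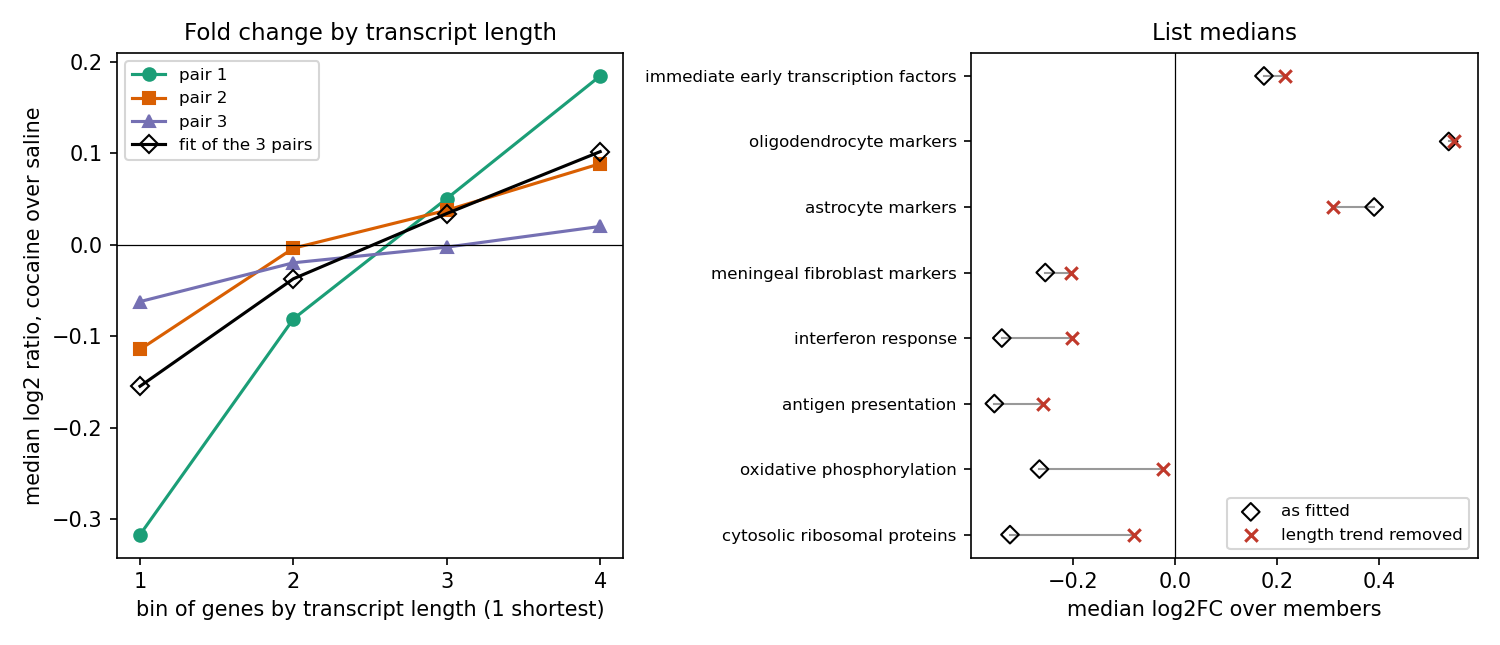
Left, the median log2 ratio of cocaine over saline in 4 bins of genes by transcript length, in each pair (colours) and in the fit (black). Right, the median log2FC of 8 gene lists as fitted (diamonds) and with the length trend removed (crosses). The lines climb from the shortest to the longest bin, and the ribosomal and oxidative phosphorylation medians lie nearest to 0 once the trend is removed.

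Most genes of the immune response lists had a log2FC below 0. Antigen presentation loads peptides onto histocompatibility proteins for display to T cells. Of 16 genes tested, 2 had a log2FC above 0, 11 were lower and 0 were higher in all 3 pairs, 8 were lower at an unadjusted p under 0.05, and the median was -0.35. The pair medians were -0.78, -0.15 and -0.15, and the median was -0.18 without saline replicate 1. Psmb8, an immunoproteasome subunit, was at 20.0, 13.8 and 11.8 CPM in saline and at 9.09, 8.91 and 9.62 CPM in cocaine. The groups did not overlap and the log2FC was -0.69 ± 0.18. The class II gene H2-Aa was at 48.0, 26.1 and 49.95 CPM in saline and at 19.6, 20.5 and 43.5 CPM in cocaine, with a log2FC of -0.62 ± 0.19. The class I gene H2-D1 had a log2FC of -0.44 ± 0.15, and reads of such genes can be shared among relatives.

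Interferons induce a set of antiviral genes. Of 29 interferon-response genes tested, 5 had a log2FC above 0, 8 were lower at an unadjusted p under 0.05, and the median was -0.34. In all 3 pairs 5 were lower and 1 was higher, and for the lower ones this share is close to the 16.8% of all genes. The medians in pairs 1 and 2 were -0.60 and -0.32, and in pair 3 the median was 0.09. Without saline replicate 1 the median of the list was -0.12, and with the length trend described above removed it was -0.20. Ifitm2, which blocks viral entry, was at 96.1, 97.7 and 96.8 CPM in saline and at 69.8, 71.7 and 81.6 CPM in cocaine. The 3 saline libraries lay close together and above all cocaine libraries, and the log2FC was -0.39 ± 0.13. With that trend removed, the log2FC of Ifitm2 was -0.08. Rsad2 (viperin) was at 3.24, 2.97 and 1.36 CPM in saline and at 1.51, 0.619 and 1.75 CPM in cocaine. It was lower in pairs 1 and 2 and higher in pair 3, with a log2FC of -1.12 ± 0.44, or -0.49 without saline replicate 2.

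Upstream sequence of these 2 genes is shown for the element through which interferon acts, the core of the interferon-stimulated response element (ISRE, searched as GAAANNGAAA on either strand, in capitals). The Ifitm2 window covers chr7:140955992-140956111 on the minus strand, from 150 to 31 bases before the RefSeq start, and the Rsad2 window covers chr12:26456453-26456602 on the minus strand, the 150 bases before it.
Ifitm2: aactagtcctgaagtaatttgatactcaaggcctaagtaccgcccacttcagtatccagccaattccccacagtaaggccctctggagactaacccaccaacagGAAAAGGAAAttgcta
Rsad2: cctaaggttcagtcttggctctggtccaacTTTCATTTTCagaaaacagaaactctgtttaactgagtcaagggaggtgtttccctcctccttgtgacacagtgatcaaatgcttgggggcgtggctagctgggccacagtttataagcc
The core began 46 bases before the start of Ifitm2 and 120 bases before that of Rsad2. Within 250 bases before the start it was found for 11 of 21 interferon-response genes with an entry, for 2 of 11 antigen presentation genes and for 3.46% of all 27025 genes.

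Cxcl10, a chemokine induced by interferon and placed here in a list of 15 reactive glia genes, was at 8.54, 9.69 and 3.18 CPM in saline and at 2.57, 1.81 and 4.06 CPM in cocaine. The first 2 saline libraries were above all others, and saline replicate 3 lay inside the range of the cocaine libraries. Its log2FC was -1.46 ± 0.44, with an adjusted p of 0.717 in edgeR. Cxcl10 passed where saline replicate 3 was left out, at -2.12 with an adjusted p of 0.0169, and where the replicates numbered 3 of every group were left out, at -2.05 with an adjusted p of 0.0144. Without saline replicate 2 its log2FC was -0.96, and it did not pass. Serpina3n, a marker of reactive astrocytes in the same list, was at 4.46, 3.59 and 16.2 CPM in saline and at 15.4, 11.5 and 5.65 CPM in cocaine. In the whole list 6 had a log2FC above 0 and the median was -0.14, or 0.07 without saline replicate 1. Serpina3n was higher with cocaine in pairs 1 and 2, by 1.78 and 1.67, and lower in pair 3, by -1.52 on the log2 scale. The log2FC was 0.71 ± 0.52 against saline and 2.27 against the yoked libraries, which were at 1.09, 3.20 and 3.19 CPM.

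**Figure D4:**
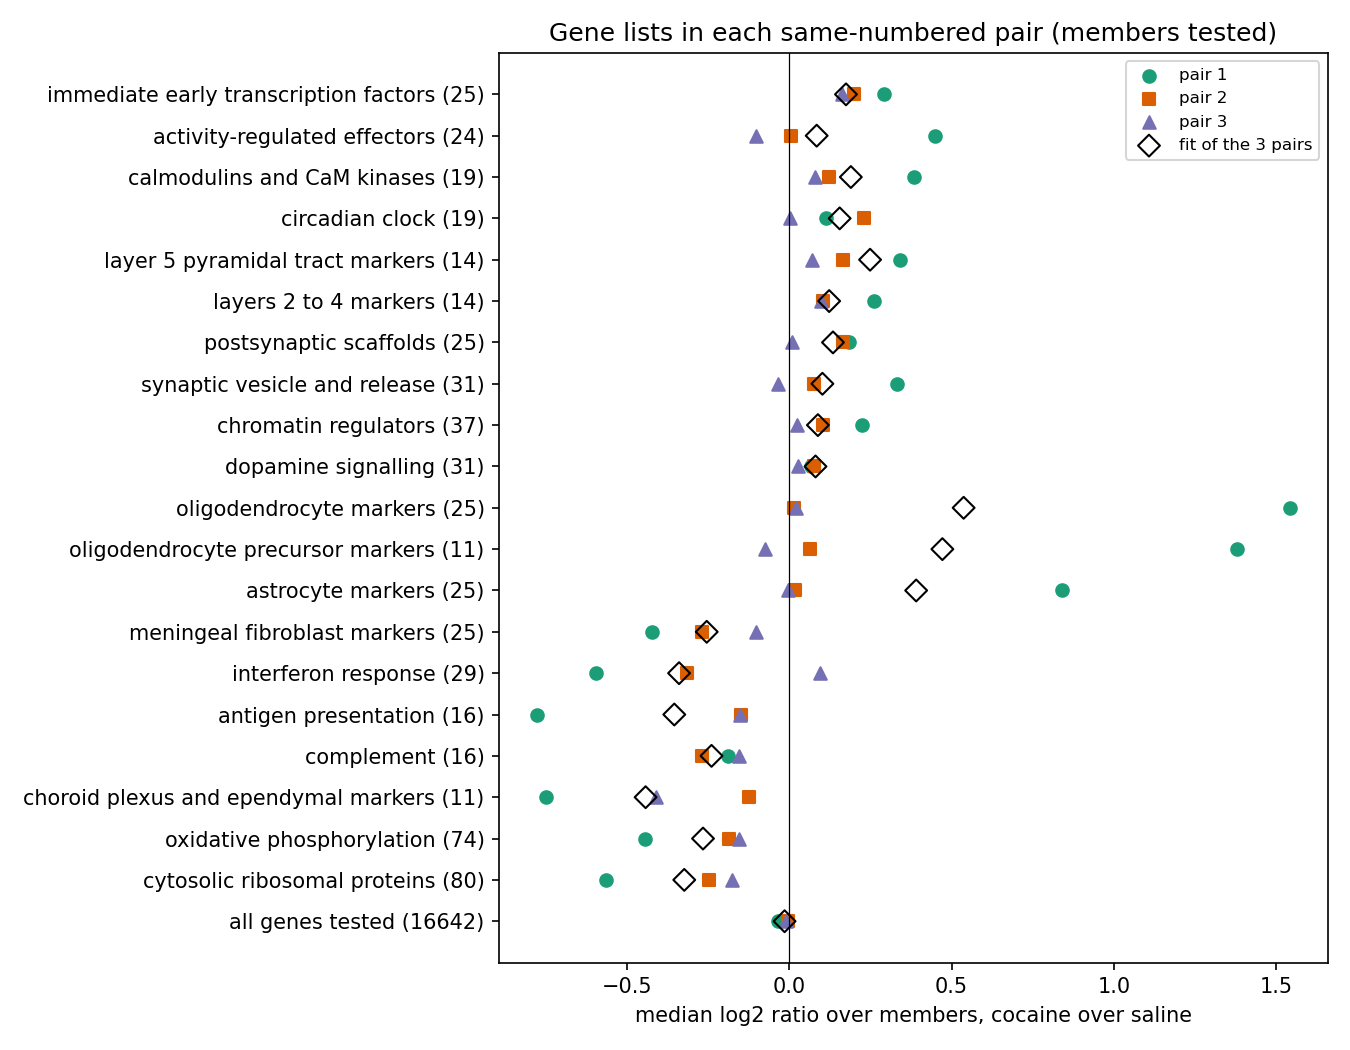
Median log2 ratio of cocaine over saline for 20 gene lists and for all genes tested, in each same-numbered pair (colours and shapes) and in the fit (diamonds), with the number of members tested in brackets. The immediate early factors lie at 0.16 to 0.29 in the 3 pairs, ribosomal and oxidative phosphorylation genes lie below 0 in each, and the oligodendrocyte, precursor and astrocyte lists lie far above 0 in pair 1 alone.

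Most markers of oligodendrocytes, their precursors and astrocytes had a log2FC above 0 in the fit of all pairs, with pair medians far from 0 in pair 1 and close to 0 in pairs 2 and 3. As given above, Mbp, Aqp4 and Gad1 were lower in each of the 6 IP libraries than in the input. How much of this RNA came from untagged cells was not tested. Oligodendrocytes wrap axons in myelin. Of 25 markers, 24 had a log2FC above 0, 7 were higher and 1 was lower in all 3 pairs, 11 were higher at an unadjusted p under 0.05, and the median was 0.54. The pair medians were 1.54, 0.01 and 0.02. Sox10, the lineage factor, was at 1.65, 6.45 and 1.60 CPM in saline and at 11.4, 7.52 and 2.83 CPM in cocaine, with overlapping groups. Both libraries numbered 3 and saline replicate 1 were low, while both libraries numbered 2 and cocaine replicate 1 were high.

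Astrocyte markers, 25 in all, had 20 above 0, 9 higher and 4 lower in all 3 pairs and a median of 0.39, with pair medians of 0.84, 0.02 and -0.01. For the 4 lower ones this share is close to the 16.8% of all genes. Among the 4, Cst3 (cystatin C, a secreted protease inhibitor) had a log2FC of -0.39 ± 0.12, or -0.14 with the length trend removed. Acsbg1, an acyl-CoA synthetase, was at 4.05, 15.6 and 2.89 CPM in saline and at 26.5, 16.9 and 4.28 CPM in cocaine. Cocaine replicate 1 was the highest of the 6. The water channel Aqp4 had a log2FC of 0.87 ± 0.30 and the filament protein Gfap one of 0.64 ± 0.34, while the myelin basic protein gene Mbp was at 0.55 ± 0.22. Of 11 oligodendrocyte precursor markers, 9 were above 0 with a median of 0.47, and in all 3 pairs 3 were higher and 1 was lower. Ptprz1, a receptor phosphatase, was at 6.70, 13.4 and 12.1 CPM in saline and at 28.2, 16.5 and 15.5 CPM in cocaine. The 1 lower in every pair was C1ql1, with a log2FC of -0.57 ± 0.22 and no overlap between the groups. Without saline replicate 1 the medians were 0.17 for oligodendrocytes, 0.14 for astrocytes and 0.12 for precursors, and without cocaine replicate 1 they were 0.15, 0.04 and 0.05. In the yoked libraries the oligodendrocyte median against saline was -0.19. Gad1, the GABA-synthesising enzyme of interneurons, followed the glial markers, at 73.4, 105 and 49.0 CPM in saline and 144, 115 and 54.2 CPM in cocaine.

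**Figure D5:**
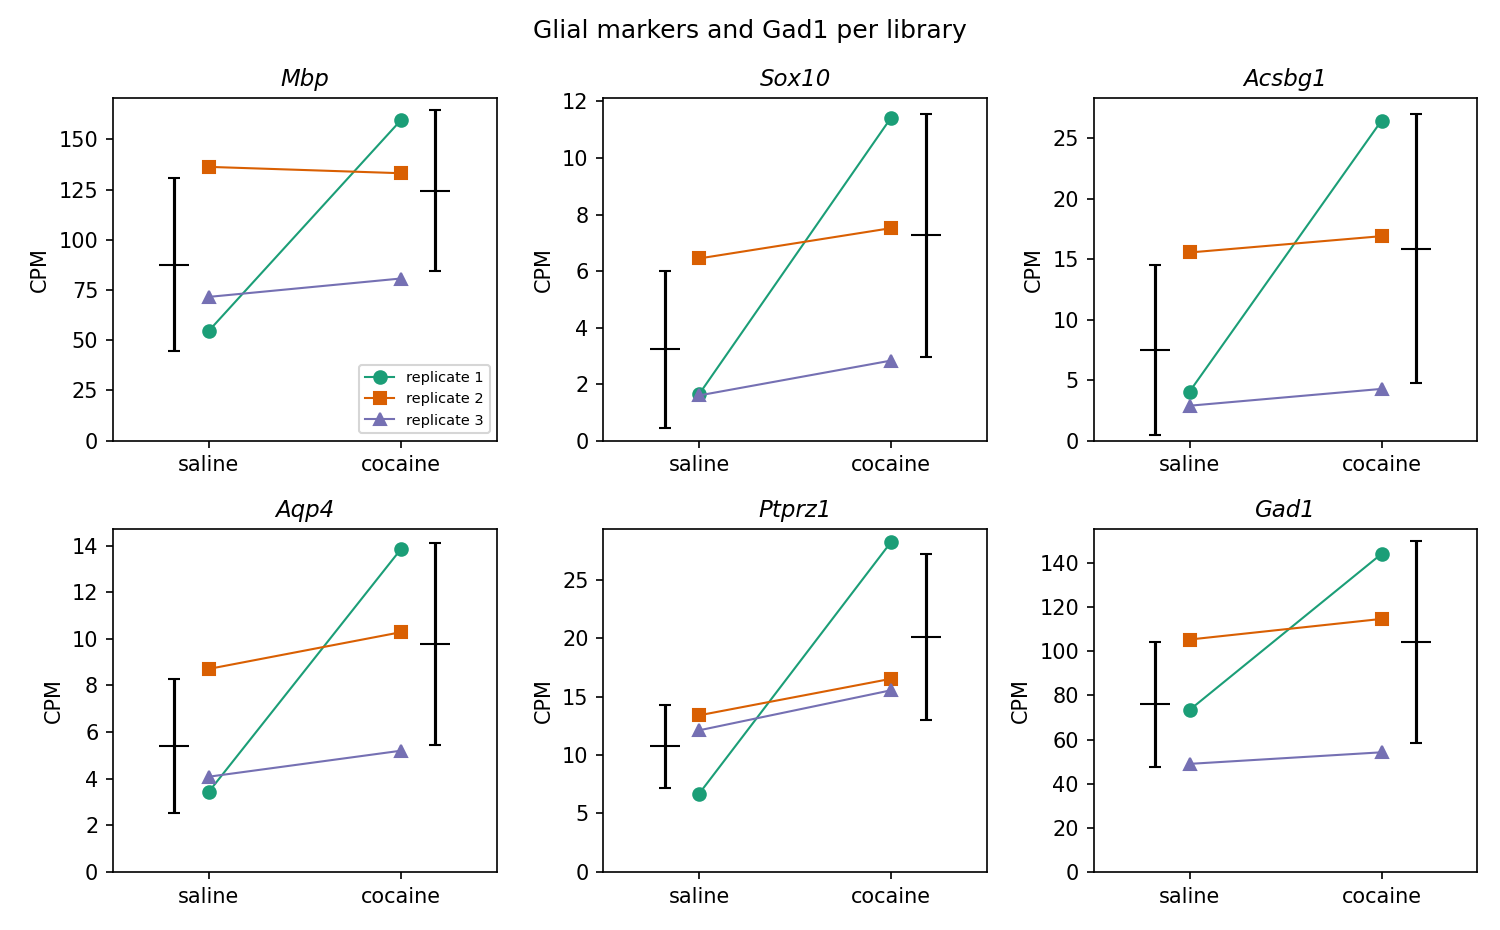
Level in CPM (linear axes from 0) of 5 glial markers and Gad1 in each saline and cocaine IP library, with lines joining libraries of the same number and black bars for the mean ± SD of 3 libraries. In every panel the line of replicate 1 climbs steeply from saline to cocaine, while the lines of replicates 2 and 3 climb less or are nearly flat.

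Markers of the meninges were slightly lower. Of 25 meningeal fibroblast markers, 1 had a log2FC above 0, 15 were lower and 1 was higher in all 3 pairs, 9 were lower at an unadjusted p under 0.05, and the median was -0.25, with pair medians of -0.43, -0.27 and -0.10. Ptgds, prostaglandin D synthase, was at 24325, 28265 and 38679 CPM in saline and at 20751, 19240 and 28055 CPM in cocaine. Each cocaine library was below its partner although the groups overlapped, and the log2FC was -0.42 ± 0.10, or -0.17 with the length trend removed. Crabp2, which binds retinoic acid, was at 313, 221 and 222 CPM in saline and at 179, 170 and 205 CPM in cocaine, with no overlap and a log2FC of -0.43 ± 0.14, or -0.20 with the length trend removed. The proteoglycan decorin (Dcn) was at -0.23 ± 0.14. The summed level of the list was 28297 to 43070 CPM in saline and 21957 to 32451 CPM in cocaine, with 0 of the 25 at 0 counts in any of the 6 libraries. Ptgds made up most of that sum, on average 30423 of 34289 CPM in saline and 22682 of 26033 CPM in cocaine. The sum therefore says little about the other members. Without saline replicate 1 the median of the list was -0.15. With the length trend removed it was -0.20, with 1 of 25 still above 0. The part of meningeal RNA in the lower values of immune genes was not tested. Among 11 markers of choroid plexus and ependyma 2 were above 0 with a median of -0.44, and among 16 complement genes 5 were above 0 with a median of -0.24. Without cocaine replicate 3, 9 of the complement genes were above 0 and their median was 0.03, and without saline replicate 1 the choroid plexus median was -0.20. Of 20 microglia markers 12 were above 0, with a median of 0.09 and pair medians of 0.45, 0.02 and -0.28. Without cocaine replicate 1, 4 of the 20 were above 0 and the median was -0.24. The fractalkine receptor Cx3cr1 was at 1.02, 1.58 and 1.82 CPM in saline and at 2.82, 2.63 and 2.41 CPM in cocaine. Tmem119 was lower, at -0.35 ± 0.16. With the input included in the scaling, Tmem119 lay at 9.74 to 19.4 CPM in the 6 libraries, above the input at 4.44 CPM. Cx3cr1 lay at 1.01 to 2.79 CPM, below the input at 5.05 CPM. Whether both genes report the same cells here was not tested.

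Neuronal lists differed by little. Calmodulin and the calcium/calmodulin-dependent kinases turn calcium entry into phosphorylation. In their list, 16 of 19 genes had a log2FC above 0, with 7 higher in all 3 pairs, 1 lower, and a median of 0.19. Pair medians were 0.38, 0.12 and 0.08. Camk2a, the main postsynaptic kinase, was at 1360, 1851 and 2073 CPM in saline and at 2371, 2058 and 2388 CPM in cocaine, with a log2FC of 0.39 ± 0.13. Only cocaine replicate 2 lay inside the range of the saline libraries. Camk1g was at 29.6, 27.7 and 27.8 CPM in saline and at 38.2, 38.0 and 33.3 CPM in cocaine, with no overlap and a log2FC of 0.36 ± 0.13. Ppp3ca, the calcineurin catalytic subunit that opposes these kinases, is also counted among the 19. Its groups did not overlap either, and its log2FC was 0.30 ± 0.12. Without saline replicate 1 the median of these 19 genes was 0.09. Postsynaptic scaffolds had 20 of 25 above 0 with a median of 0.13, or 0.03 with the length trend removed, and release proteins had 24 of 31 above 0 with a median of 0.10, or 0.01 without cocaine replicate 1.

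Of 14 markers of the layer 5 neurons that project to the brainstem and spinal cord, 12 had a log2FC above 0. In all 3 pairs 7 were higher and 1 was lower, and the median was 0.25. The median was 0.06 without cocaine replicate 1. Fezf2, the factor that specifies these neurons, was at 39.8, 41.0 and 40.9 CPM in saline and at 48.4, 51.1 and 47.7 CPM in cocaine. The groups did not overlap and the spread within each was small, but the log2FC was only 0.27 ± 0.13. Tox, a nuclear HMG-box protein, was at 48.3, 60.7 and 52.3 CPM in saline and at 72.3, 68.8 and 68.4 CPM in cocaine, with a log2FC of 0.39 ± 0.13. Bcl6, a transcriptional repressor, had a log2FC of 0.54 ± 0.17. Other layers gave medians of 0.12 for layers 2 to 4 and 0.06 for layer 6. For layer 5 neurons that project within the telencephalon, whose list of 12 markers holds S100a10, the median was -0.07. In all 3 pairs 5 of them were lower and 3 higher, and without cocaine replicate 1 the median was 0.13. Rbp4, the member with the lowest unadjusted p, had a log2FC of -0.68 ± 0.18 with overlapping groups. The next in that order, Ddit4l, was at 0.35 ± 0.15. Nefm, the medium neurofilament protein of large axons, was counted here in the list for layers 2 to 4. Its level was 248, 211 and 256 CPM in saline and 377, 268 and 343 CPM in cocaine, without overlap. The log2FC of Nefm was 0.46 ± 0.14.

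The transcript whose regulatory sequences drive the tag was measured in each library. S100a10 was at 252, 285 and 174 CPM in saline and at 200, 204 and 168 CPM in cocaine. Saline replicates 1 and 2 were above all cocaine libraries and saline replicate 3 was not, the log2FC was -0.31 ± 0.16, and it was 0.01 with the length trend removed. Its partner annexin A2 (Anxa2) had a log2FC of -0.10 ± 0.12, or 0.05 with the length trend removed, and Ahnak, a scaffold that binds the pair, one of -0.24 ± 0.19. Hltf, a chromatin remodeller of the helicase-like family, was at 17.1 CPM in each saline library and at 17.7, 18.4 and 18.05 CPM in cocaine, with a log2FC of 0.08 ± 0.15. Rpl10a lay between 3.58 and 5.97 CPM in the 6 libraries, and reads of the transgene and of the endogenous gene are counted together.

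Genes of the dopamine system that cocaine acts on gave small or uncertain values. Of 31 dopamine signalling genes tested, 21 had a log2FC above 0, 11 were higher and 4 lower in all 3 pairs, and the median was 0.08. For the 4 lower ones this share is not above the 16.8% of all genes. The D1 receptor gene Drd1 was at 6.17, 9.37 and 6.64 CPM in saline and at 10.01, 6.97 and 6.83 CPM in cocaine, with a log2FC of 0.08 ± 0.22. For the D2 receptor gene Drd2 the log2FC was -0.67 ± 0.35, at 0.31, -1.03 and -1.45 in pairs 1 to 3. Drd5 was at 1.30, 1.01 and 1.46 CPM in saline and at 0.654, 0.464 and 0.652 CPM in cocaine, with no overlap and a 95% interval of -2.19 to 0.03 on the log2FC. Gnal, the G protein alpha subunit that couples the D1 receptor to adenylyl cyclase, had a log2FC of 0.35 ± 0.14, and Ppp1r1b (DARPP-32), the phosphatase inhibitor downstream of it, one of 0.01 ± 0.15. For Drd1 the 95% interval on the log2FC ran from -0.39 to 0.56, so it held differences of either sign. The opioid precursors Penk and Pdyn had log2FC of 0.35 ± 0.22 and 0.37 ± 0.25, and neuropeptide Y (Npy) had one of -0.33 ± 0.20, or -0.02 with the length trend removed. The vesicular glutamate transporter Slc17a7, higher in both libraries numbered 3 than in any other of the 6, was at -0.18 ± 0.12.

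Clock genes, several of which also respond to activity, had 14 of 19 above 0, 7 higher and 1 lower in all 3 pairs and a median of 0.15. Per2 was at 25.3, 22.6 and 27.3 CPM in saline and at 33.6, 30.6 and 30.9 CPM in cocaine, with no overlap and a log2FC of 0.35 ± 0.15. Per1 had a log2FC of 0.30 ± 0.13 and Dbp, an output of the clock, one of -0.38 ± 0.19. In the list of 37 chromatin regulators, 31 were above 0 with a median of 0.09, or 0.02 both with the length trend removed and without cocaine replicate 1. Hdac5, a histone deacetylase that leaves the nucleus on neuronal activity, had a log2FC of -0.10 ± 0.14. Glucocorticoid-responsive genes had 11 of 21 above 0 and a median of 0.01, and the stress-induced chaperone Fkbp5 was at -0.05 ± 0.14. The kinase Sgk1, another stress-induced gene, was at 0.20 ± 0.13.

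Log2 ratios across the genome differed from pair to pair. Over 12918 genes with an average of at least 1 log2 CPM, Pearson's correlation of the log2 ratios was 0.23 between pairs 1 and 2, -0.02 between pairs 1 and 3 and 0.09 between pairs 2 and 3. These correlations run across genes, which are not independent replicates, and the libraries of an arm shared a lane. The log2 ratios had an SD of 0.51 in pair 1, 0.26 in pair 2 and 0.29 in pair 3, and 609, 66 and 104 genes differed by more than 1 on the log2 scale. Pair 1 was the widest. Leaving out 1 of the 6 libraries shrank the log2FC by more than 1.5 times, or turned it, for 55 of the 85 genes followed, among them 31 without saline replicate 1 and 33 without cocaine replicate 1. Egr1, Egr2 and Egr3 were not among the 55, but Egr4 was, at 0.30 without saline replicate 1 against 0.48 in the fit. Egr1, Egr2 and Egr3 were named for a low p and the same sign in these same pairs, so their steadiness is no separate support. The Y-linked gene Ddx3y lay between 45.1 and 70.5 CPM in all 6 libraries and Xist at no more than 0.263 CPM.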

How the data were processed

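Each library has 1 deposited table of unnormalised read counts by gene symbol, which the authors made with STAR 2.0.0e and HTSeq on the mouse build mm10, per the submitters' processing notes. For HTSeq the version, strand setting and gene models were not given in the sources used here, so antisense and overlapping genes cannot be separated. Each table held 6 entries that name no gene, and these entered neither the library sizes nor any test. Multiply aligned reads made up 38.3% to 46.8% of reads in the 6 libraries.

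From these counts, edgeR 4.0.16 (R 4.3.3) fitted the 9 IP libraries with group and replicate number as terms, TMM factors, filterByExpr (minimum count 10) and the quasi-likelihood test. P-values were adjusted by Benjamini-Hochberg over all 16642 genes tested, with a threshold of 0.05. CPM values are counts scaled by library size and TMM factor, and pair ratios are log2 CPM differences with a prior count of 2. Limma 3.58.1 and DESeq2 1.42.0 were alternatives, as were other scaling factors and filters, the removal of a smooth trend in transcript length (4 degrees of freedom), and leaving out each replicate. The fit was tested on simulated data. Pairs of replicates within a group differed by more than counting noise (chi-square over its degrees of freedom at least 32.8).

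Transcript lengths came from GENCODE M21 and covered 93.7% of genes tested. The members and the 46 gene lists were chosen with earlier results of these data known. Named genes were the 10 in each direction with the lowest unadjusted p, a mean log2 CPM no lower than 1 and the same sign in all 3 pairs, the 3 members of each list with the lowest unadjusted p, and a fixed set of 40 genes. Some of these genes are not reported here. Of the list leaders only some are given, also for the lists described in detail, so the members shown are not the full set.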

Additional observations from a re-analysis of the deposited data

How the results depend on the processing

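Without the replicate block, edgeR called 0 genes between cocaine and saline, and 530 had an unadjusted p under 0.05. Deviations of same-numbered saline and cocaine libraries from their group means correlated at -0.04, 0.21 and 0.31 for numbers 1 to 3. Not every pair was above 0.1, and saline replicates 1 and 2 did not correlate best with the cocaine library of their own number. The fit, the values per pair and the choice of named genes still used the numbers, so the pairs are pairs by number only. Libraries numbered 3 did deviate together, also with the yoked library of that number, at 0.28 for saline and 0.32 for cocaine. The block changed no call of a named gene between cocaine and saline. The count of 0 held under 15 of 18 alternatives. Without a filter on low counts it was 29 between cocaine and saline, 9 between yoked and saline and 33 between cocaine and yoked, and the cause was not tested. It was 1 (Cxcl10) without saline replicate 3 and 1 without the replicates numbered 3 of every group, the latter with 2 for yoked against saline and 1 for cocaine against yoked. Leaving out 1 replicate at a time gave 0 to 1 genes for cocaine against saline and 0 to 1 for cocaine against yoked. DESeq2 called 2 genes between yoked and saline, and a fit of only the cocaine and yoked libraries called 1.

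With the length trend removed, the median log2FC was -0.080 for ribosomal proteins and -0.024 for oxidative phosphorylation, and the signs of S100a10 (0.0068), Rpl10a (0.0019) and Anxa2 (0.052) turned. The median of the immediate early factors ranged from 0.12 to 0.34 when 1 replicate was left out and was 0.26 without the replicates numbered 3. Of 1523 values for 85 named genes, 1490 kept their direction and their side of the threshold, 13 passed it and 20 changed direction, in 15 genes. With 1 replicate left out, the log2FC ranged from -0.020 to 0.45 for Fos, -0.0033 to 0.34 for Jun, -0.28 to 0.34 for Junb, -0.15 to 0.36 for Npas4, -0.19 to 0.33 for Drd1, -0.19 to 0.13 for Ppp1r1b and -0.19 to 0.011 for Hdac5. It ranged from -0.14 to 0.0096 for Fkbp5, -0.42 to 0.070 for Ahnak, -0.0028 to 1.02 for Gfap, -0.13 to 1.51 for Serpina3n and -0.25 to 1.22 for Xist, which was at no more than 0.263 CPM. The direction turned without saline replicate 1 for Fos, Ahnak, Junb, Drd1, Npas4 and Ppp1r1b, and without cocaine replicate 1 for Serpina3n, Gfap, Fkbp5, Drd1, Npas4, Junb, Ppp1r1b and Xist. It also turned without saline replicate 2 for Npas4 and Hdac5 and without cocaine replicate 3 for Jun. The causes were not tested. With 3 libraries a group and a common biological coefficient of variation of 0.19, small differences could not be detected.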
